A study of Mus musculus with 8 samples.

Results

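Gata2 Apoe progenitors were defined as the marrow progenitor cells in which transcripts of both Gata2 and Apoe were counted while markers of stem cells, committed erythroid cells, megakaryocytes, basophils and mast cells were absent or low. They were chosen from raw counts of unique molecular identifiers (UMIs, 1 for each captured transcript). A cell needed at least 1 UMI of Gata2 and at least 1 of Apoe, 0 UMIs of Hlf, Mecom, Procr, Klf1 and Ms4a2, and at most 2 UMIs each of Pf4 and Mcpt8. The rule was met by 2793 of 29891 cells, and their working label was common myeloid and pre-megakaryocyte-erythroid progenitors. Each of the 9 genes of the rule is given below only as a description.

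The cells came from female B6 mice aged 3 to 4 months. SPF mice stayed in a specific pathogen free facility, and CVT mice were co-housed for 1 month in a conventional facility, with 10 mice in each housing group. Lineage-negative, CD117-positive bone marrow cells (KL cells, sorted for c-Kit and against CD4, CD8, CD3, CD45R, TER119, CD11b and GR1) of 2 or 3 mice were pooled into each of 8 samples for droplet sequencing with the 10x Genomics method. SPF pools were numbered 1, 2, 7 and 8 and CVT pools 3, 4, 5 and 6, and the pool was the replicate. Pools 1 to 4 held the first mice by number and pools 5 to 8 the later mice, so that each of these pool sets held 2 pools of each housing group.

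The 12331 SPF cells and 17560 CVT cells had a median of 8964.0 UMIs. The progenitors were shallower, with a median of 6358.0 UMIs and 2119.0 genes against 9416.0 UMIs and 2655.0 genes in all other cells. They numbered 159, 366, 186 and 411 in SPF pools 1, 2, 7 and 8 and 512, 391, 443 and 325 in CVT pools 3, 4, 5 and 6. Summed over the progenitors, a pool held between 1137050 and 4068939 UMIs. Of 29365 barcodes, 522 were found in more than 1 pool, and 106 progenitors carried such a barcode. Only 6 barcodes belonged to progenitors in more than 1 pool. In sums over a pool, fewer cells of a type and less RNA per cell cannot be told apart.

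Common myeloid progenitors give rise to granulocytes and monocytes as well as to megakaryocytes and red cells, and pre-megakaryocyte-erythroid cells are a step within this branch before the erythroid and platelet fates part. GATA2 is a zinc-finger transcription factor of stem and progenitor cells and of mast cells, and in the erythroid branch it gives way to GATA1 and KLF1. Apolipoprotein E, the product of Apoe, binds lipoprotein receptors and carries cholesterol out of cells.

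The genes that set the progenitors apart from all other KL cells, the contrast that the rule itself had fixed in part, encoded receptors, transporters and enzymes of a mixed kind. Levels are CPM values, the UMIs of a gene scaled to the same total over the summed cells of a pool (mean ± SD over the 8 pools, n = 8), and each gene named had the same direction in 8 of 8 pools. Pdzph1, which encodes a protein with PDZ and pleckstrin homology domains, led with 25.4 ± 6.27 CPM against 4.55 ± 1.05 CPM, a mean log2 ratio of 2.24. F2r, a receptor cleaved by thrombin, stood at 73.6 ± 10.5 CPM against 23.1 ± 3.92 CPM. Cpa3, the carboxypeptidase of mast cell granules, stood at 136 ± 42.0 CPM against 50.1 ± 11.5 CPM, although the rule had removed cells with the mast and basophil gene Ms4a2. Clec4d, a C-type lectin receptor, reached 118 ± 18 CPM against 40.8 ± 6.31 CPM. Slc18a2, the transporter that loads vesicles with histamine and other amines, had 34.2 ± 5.94 CPM against 12.2 ± 2.61 CPM. The 20 genes with the highest ratios also held St8sia6, Scin, Rapgef3, Stx3, Tuba8, Gnb4, Tnik, Mycn, Dach1 and Galnt6, down to a log2 ratio of 1.18. The chosen genes Gata2 (266 ± 27.5 CPM against 65.5 ± 8.89 CPM) and Apoe (1537 ± 205 CPM against 554 ± 115 CPM) were among them by construction. F2r and Cpa3 were more frequent in a neighbouring group than in the progenitors, as given below.

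Pdzph1, Slc18a2 and Cpa3 are shown with the 250 bases before their annotated start, because a GATA letter motif lies in them. The motif AGATAA, a form of the site that GATA factors bind, was searched on both strands, where its reverse complement reads TTATCT. Of the 20 leading genes, 17 had an entry in the RefSeq promoter table of build GRCm38.p6, and 3 of those 17 (17.6%) held the motif. Among all 27025 genes of the table, 3090 (11.4%) held it in a window of the same length, and 3 of 9 matched genes among the 10 lowest (33.3%) did. The capitals mark the motif, which begins 48 bases before the start in Pdzph1 (chr17:58991376-58991625, minus strand), 230 bases in Slc18a2 (chr19:59260628-59260877, plus strand) and 46 bases in Cpa3 (chr3:20242182-20242431, minus strand). A match describes these letters and says nothing of binding.
Pdzph1: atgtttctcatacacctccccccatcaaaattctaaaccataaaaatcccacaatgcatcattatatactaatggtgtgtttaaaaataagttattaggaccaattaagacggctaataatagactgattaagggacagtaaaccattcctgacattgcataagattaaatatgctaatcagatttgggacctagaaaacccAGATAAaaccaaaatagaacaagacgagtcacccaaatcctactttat
Slc18a2: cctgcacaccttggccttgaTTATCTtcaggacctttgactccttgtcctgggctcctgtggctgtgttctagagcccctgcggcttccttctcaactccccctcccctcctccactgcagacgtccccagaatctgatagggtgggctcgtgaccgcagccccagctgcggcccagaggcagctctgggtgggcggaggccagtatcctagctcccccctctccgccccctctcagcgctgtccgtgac
Cpa3: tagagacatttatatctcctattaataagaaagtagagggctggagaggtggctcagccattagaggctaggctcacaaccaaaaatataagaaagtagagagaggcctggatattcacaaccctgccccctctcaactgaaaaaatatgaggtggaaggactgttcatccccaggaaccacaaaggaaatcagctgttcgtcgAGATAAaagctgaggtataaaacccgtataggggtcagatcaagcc

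Some genes of lowest ratio that the rule had not used are given here. Mt2, a metal-binding metallothionein, had 13 ± 6.47 CPM in the progenitors against 138 ± 40.7 CPM in all other cells. Sphk1, a sphingosine kinase, had 3.08 ± 2.06 CPM against 39.8 ± 14.7 CPM, and Rhd, the rhesus blood group antigen of red cells, 3.72 ± 1.45 CPM against 43.7 ± 14.9 CPM. Prss34, a basophil and mast cell protease, had 1.06 ± 1.31 CPM against 27.0 ± 24.3 CPM.

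The label was checked against Slc22a3, an organic cation transporter, and Muc13, a membrane mucin, the only label markers that the rule did not use. To take out depth, every cell was thinned to 2759 UMIs, the smallest total of a cell, and a share is the percentage of cells with at least 1 UMI after thinning. Slc22a3 was found in 21.0% of the progenitors (17.3% to 27.0% over the pools) and in 9.93% of all other cells, or in 39.7% of the progenitors without thinning. Muc13 was found in 33.0% (29.8% to 37.1% over the pools) against 18.8%, and in 59.9% of the progenitors without thinning. In granulocyte reference cells (3747 cells with at least 10 UMIs of Elane and 0 of Gata2 and Klf1, median depth 16115.0 UMIs), which should lack Slc22a3, its share was 1.01%. Both markers were more frequent than in the rest of the KL cells, but not particular to the progenitors among cells with Gata2 and Apoe. In the 4 neighbouring groups described further on, Slc22a3 was found in 14% to 23.8% and Muc13 in 27.3% to 30.3%, and the 23.8% of the Ms4a2 or Mcpt8 neighbours exceeded the share of the progenitors. Among the leading genes, F2r was found in 21.1% of the progenitors and in 31.4% of the Pf4 neighbours. Cpa3 was found in 19.6% of the progenitors and in 59.7% of the Ms4a2 or Mcpt8 neighbours. Pdzph1 was found in 8.27% of the progenitors and in 1.20% to 5.67% of the neighbouring groups. Mt2, at 3.15% in the progenitors, was about as low in the Pf4 (2.88%) and the Ms4a2 or Mcpt8 neighbours (3.59%).

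Genes of several branches were each found in a part of the progenitors. Car1, carbonic anhydrase of early erythroid cells, was found in 47.8% of the progenitors, against 13.9% of the granulocyte reference cells. Gata1, the erythroid and megakaryocyte regulator, was found in 15.9% (0.641% of the granulocyte reference), and its partner Zfpm1 in 12.2%. Itga2b, the CD41 integrin chain of megakaryocytes, was found in 16.8% (1.49% of the granulocyte reference). Mpo, the myeloperoxidase of azurophil granules, was found in 45%, against 26.6% of 4041 erythroid reference cells (Klf1, Car1 and Ermap each of at least 1 UMI, median depth 19341.0 UMIs), which should lack it. Cd34 was found in 24.2%, Flt3 of lymphoid-primed cells in 3.26% and the proliferation marker Mki67 in 11.2%.

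Shares of S100a8 and Hbb-bs differed little between the cell groups. S100a8, an antimicrobial protein of neutrophils, was found in 65.3% of the progenitors and in 56.7% to 68.0% of every group of cells examined, erythroid reference cells included. Hbb-bs, an adult haemoglobin chain, was found in 17.3% of the progenitors and in 14.5% to 19.4% of every group. Both shares varied far more between pools than between cell groups, with 38.6% to 85.8% of the progenitors for S100a8 and 1.26% to 37.7% for Hbb-bs.

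**Figure D1:**
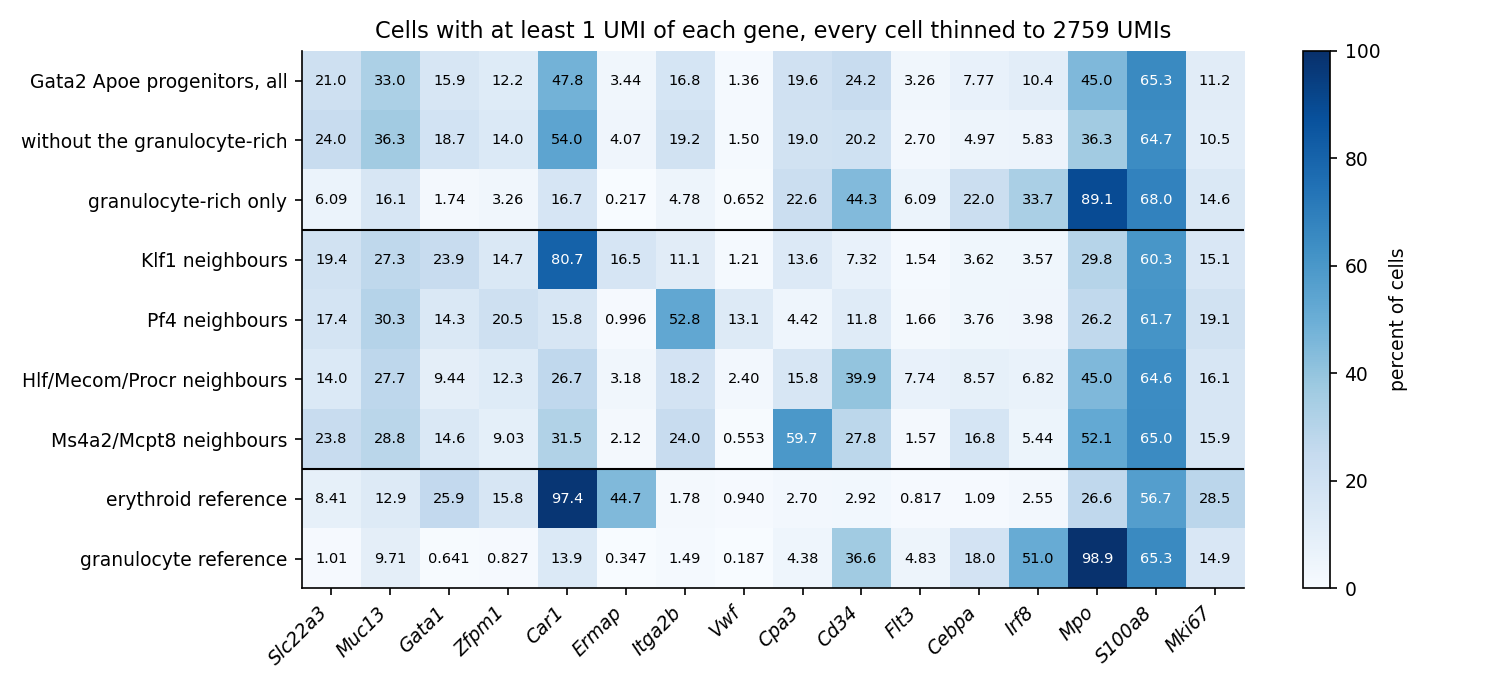
Percentage of cells with at least 1 UMI of 16 genes (columns) in the Gata2 Apoe progenitors, with and without cells rich in granule transcripts, in 4 neighbouring groups of Gata2 and Apoe positive cells and in 2 reference groups (rows), each cell thinned to 2759 UMIs. The number in each field is the percentage, and darker blue is a higher one. Car1 was found in 47.8% of the progenitors and in 80.7% of the Klf1 neighbours, Itga2b in 16.8% and in 52.8% of the Pf4 neighbours, and S100a8 in a like share of every group.

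Car1, Itga2b and Mpo, read together, divided the progenitors as follows. Car1 alone was found in 763 of 2793 cells (27.3%), Mpo alone in 708 (25.3%) and Itga2b alone in 181 (6.48%). None of the 3 genes was found in 465 cells (16.6%). Car1 with Mpo was found in 388 cells (13.9%), Car1 with Itga2b in 127 (4.55%), Itga2b with Mpo in 103 (3.69%) and all 3 genes in 58 (2.08%). Car1 with Mpo and without Itga2b was also found in 25.3% of the erythroid reference and 13.5% of the granulocyte reference cells. In the 4 neighbouring groups it was found in 2.21% to 21.2%, and the part of background in these shares was not tested. These shares are of thinned cells, so that a gene not found was not shown to be absent.

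The 10834 cells with Gata2 and Apoe fell into the progenitors (25.8%) and 4 neighbouring groups that failed the rule for 1 or more reasons and therefore overlap. Cells with Klf1 were the most numerous, at 5271 cells, followed by 2171 cells with Hlf, Mecom or Procr, 1085 cells with Ms4a2 or at least 3 UMIs of Mcpt8, and 904 cells with at least 3 UMIs of Pf4. Each neighbour differed from the progenitors in genes of its own branch that the rule had not used.

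Beside the Klf1 neighbours, all progenitors together held more transcripts of some granule genes and fewer of Mt2, Sphk1 and Add2. Elane, neutrophil elastase, stood at 1115 ± 501 CPM against 203 ± 87.3 CPM, Prtn3, proteinase 3, at 1139.9 ± 363 CPM against 217 ± 58.2 CPM, and Cebpe, a transcription factor of granulocyte maturation, at 30.3 ± 9.58 CPM against 4.55 ± 1.39 CPM. Without 460 cells rich in granule transcripts, described further on, Elane stood at 89.9 ± 39.5 CPM, Cebpe at 2.60 ± 0.624 CPM and Prtn3 at 314 ± 69.2 CPM. Such cells were not taken out of the Klf1 neighbours, of which 2.24% had over 0.5% of their UMIs from azurophil granule genes. These levels are therefore not set against those of the neighbours. After thinning, Elane was found in 23.1% of the progenitors without the 460 cells and in 23.9% of the Klf1 neighbours. Mt2 was at 13 ± 6.47 CPM against 252 ± 55.8 CPM, Sphk1 at 3.08 ± 2.06 CPM against 71.3 ± 23.4 CPM, and Add2, an adducin of the red cell skeleton, at 2.59 ± 1.28 CPM against 25.6 ± 8.39 CPM. These levels were 15.5 ± 7.38 CPM for Mt2, 3.61 ± 2.51 CPM for Sphk1 and 3.19 ± 1.49 CPM for Add2 without those 460 cells.

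Beside the Pf4 neighbours the progenitors held 609.7 ± 133 CPM of Car1 against 132 ± 135 CPM, and 35.8 ± 10.7 CPM of Scin, an actin-severing protein, against 2.31 ± 2.42 CPM. Platelet genes were lower in the progenitors, with Vwf, von Willebrand factor, at 3.35 ± 1.46 CPM against 63.3 ± 24.2 CPM and Gp1bb, a chain of its receptor, at 14.3 ± 3.79 CPM against 213 ± 107 CPM. Beside the neighbours with Hlf, Mecom or Procr, the progenitors had less Ly6a, the Sca-1 antigen of stem cells (7.44 ± 2.94 CPM against 31.4 ± 10.8 CPM), and less Nkx2-3 (4.29 ± 2.40 CPM against 20.4 ± 4.90 CPM). Beside those with Ms4a2 or Mcpt8 they had less Prss34 (1.06 ± 1.31 CPM against 704 ± 648 CPM) and less Fcer1a, a chain of the IgE receptor (3.83 ± 2.29 CPM against 138 ± 69.2 CPM). Dntt, the terminal transferase of lymphoid-primed cells, was higher in the progenitors than in these neighbours, at 34.3 ± 19.4 CPM against 7.02 ± 5.07 CPM.

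The limits of the rule passed through a graded population. Among progenitors, 46.8% had 1 UMI of Gata2 and 11.2% had 1 UMI of Apoe. The 1308 cells with 1 UMI of Gata2, just inside the rule, had Slc22a3 in 17.0% and Mpo in 52.8%. The 4375 cells that met every other condition with 0 UMIs of Gata2, just outside, had Slc22a3 in 6.03% and Mpo in 71.1%. The 1485 cells with at least 2 UMIs of Gata2 had Slc22a3 in 24.6% and Mpo in 38.1%. At the Apoe limit, Mpo was found in 78.3% of 313 cells with 1 UMI and in 79.3% of 527 cells with 0 UMIs. At the Klf1 limit, Car1 was found in 47.8% of the progenitors and in 77.1% of 1617 cells with 1 UMI of Klf1. Pf4 was at 2 UMIs in 105 progenitors, in which Itga2b was found in 37.1%, against 42.2% of 45 cells with 3 UMIs.

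A part of the progenitors went against the label. In 460 cells (16.5%), over 0.5% of all UMIs came from the azurophil granule genes Elane, Mpo, Prtn3 and Ctsg (397 cells) or over 1.0% from the later granule genes S100a8, S100a9, Camp, Ngp, Ltf and Lcn2 (71 cells). These limits were set after the values were seen, and the cells are called granulocyte-rich. They held 94172 of the 107302 azurophil UMIs of all progenitors (87.8%) and 164524 of the 178590 later granule UMIs (92.1%). High shares follow from the choice of the cells by these same genes and are given only as a description. Their median depth was 14325.5 UMIs, against 5880.0 in the other 2333 progenitors and 16115.0 in the granulocyte reference. They lay near the edge of the rule, since 77.2% of them had 1 UMI of Gata2 against 40.8% of the others, with a median of 2 UMIs of Apoe against 12. Slc22a3 was found in 6.09% of them and Muc13 in 16.1%, neither above its share in all other KL cells, and Gata1 in 1.74% against 18.7% of the other progenitors. No doublet caller was run, and the part of droplets with 2 cells was not tested.

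The limit cut a continuous range, with 146 progenitors between 0.25% and 0.5% and 164 between 0.5% and 1% of UMIs from azurophil genes. Only 2.24% of the Klf1 neighbours and 0.940% of the erythroid reference cells lay above 0.5%, against 14.2% of the progenitors. Without the granulocyte-rich cells the label markers Slc22a3 and Muc13 were found in 24.0% and 36.3% of 2333 progenitors, and Car1 and Itga2b in 54.0% and 19.2%. Mpo was then found in 36.3% and Elane in 23.1%, the latter close to the 22.2% of erythroid reference cells. F2r then stood at 100.2 ± 17.4 CPM and Pdzph1 at 34.9 ± 7.72 CPM, while S100a8 stood at 413 ± 172 CPM against 3757 ± 2364 CPM in all progenitors. Mpo, Elane and S100a8 were among the genes by which cells had been left out, so their lower values follow in part from that choice.

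**Figure D2:**
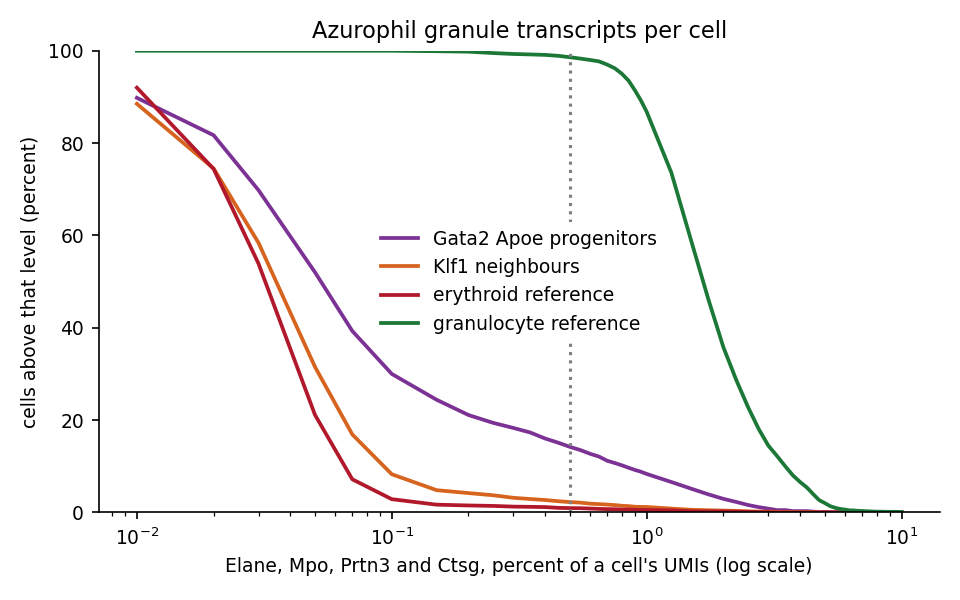
Share of cells (vertical axis, percent) in which Elane, Mpo, Prtn3 and Ctsg together gave more than a given percentage of the UMIs of the cell (horizontal axis, log scale), for the progenitors, the Klf1 neighbours and both reference groups. The dotted line marks the limit of 0.5%, which 14.2% of the progenitors, 2.24% of the Klf1 neighbours and 0.940% of the erythroid reference cells exceeded. The curve of the progenitors falls without a step at the limit.

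Progenitors with Gata1 differed from those without it in the genes of both branches. After thinning, Gata1 was found in 444 progenitors and not found in 2349, and shares were averaged over the 8 pools (mean ± SD, n = 8) as a description. Without thinning, Gata1 was found in 31.1% of the progenitors against 15.9% after it. The cells called Gata1-negative therefore include cells with a counted Gata1 UMI. Car1 was found in 64.4% ± 5.86 of the Gata1-positive cells and in 44.9% ± 7.07 of the negative cells, higher in 8 of 8 pools. Epor, the erythropoietin receptor, was found in 10.4% ± 3.20 against 5.96% ± 1.71, also higher in 8 of 8 pools, and Muc13 in 41.0% ± 5.62 against 31.8% ± 2.65, higher in 7 of 8. On the myeloid side, Mpo was found in 31.3% ± 12.1 against 44.9% ± 9.86, and Irf8, a transcription factor of monocytes and dendritic cells, in 2.94% ± 2.30 against 11.7% ± 3.63, both lower in 8 of 8 pools.

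Without the granulocyte-rich cells the differences of myeloid genes were smaller. Mpo was among the genes by which those cells had been chosen. Mpo was then found in 30.5% ± 12.5 of 436 Gata1-positive cells and in 35.5% ± 8.14 of 1897 negative cells, higher in the positive cells in 2 of 8 pools. Car1 was found in 64.7% ± 6.13 against 51.8% ± 9.04, higher in 8 of 8 pools. Cpa3 was found in 17.8% ± 4.18 of the Gata1-positive and 19.6% ± 4.13 of the Gata1-negative cells among all progenitors, and Itga2b in 20.6% ± 4.72 against 15.3% ± 3.83.

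Whether co-housing altered the frequency of these cells was asked by their share in each pool. The rule was applied to raw UMIs here, and the median depth of all cells ran from 7529.5 to 12771.5 UMIs over the pools. They made up 8.42%, 9.52%, 9.01% and 9.06% of the cells of SPF pools 1, 2, 7 and 8 and 10.6%, 9.36%, 10.2% and 7.74% of CVT pools 3, 4, 5 and 6. The groups overlapped, with 9.47% ± 1.26 in CVT against 9.0% ± 0.450 in SPF pools (SD, n = 4, exact permutation test, two-sided p = 0.514). Within pools 1 to 4 the means were 9.97% in CVT and 8.97% in SPF, and within pools 5 to 8 they were 8.97% and 9.04%. Among the Gata2 and Apoe positive cells the progenitors made up 26.7% ± 1.66 in CVT and 24.7% ± 1.99 in SPF pools (n = 4, exact permutation p = 0.200, adjusted p = 0.400 over these 2 shares). With 4 pools against 4, the smallest p that the 70 regroupings allow is 0.0286. Therefore 1 share alone could not pass 0.05 after adjustment over these 2 shares.

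Granulocyte-rich cells made up 12.6%, 12.3%, 10.2% and 15.6% of the progenitors in SPF pools 1, 2, 7 and 8 and 18.8%, 23.0%, 13.5% and 20.3% in CVT pools 3, 4, 5 and 6. The mean was 18.9% ± 3.99 in CVT and 12.7% ± 2.21 in SPF pools, with CVT pool 5 below SPF pool 8, and no test was run because the limit was set after the values were seen.

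**Figure D3:**
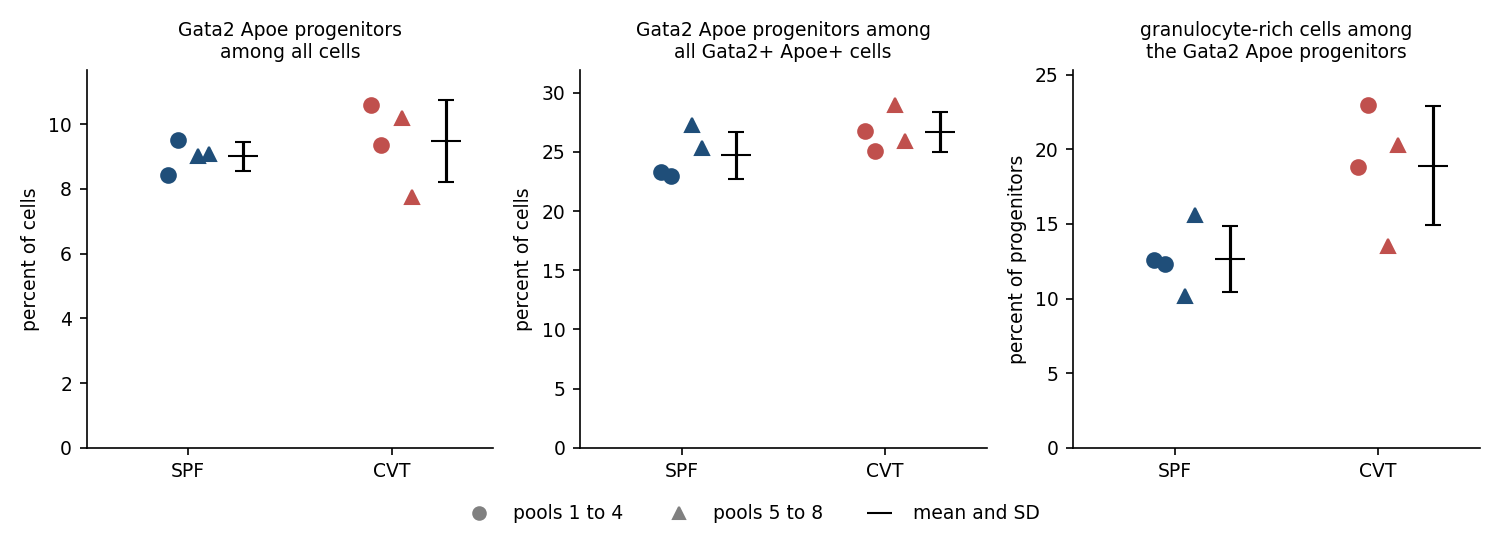
Percentage of all cells (left) and of Gata2 and Apoe positive cells (middle) that were Gata2 Apoe progenitors, and percentage of the progenitors that were granulocyte-rich (right), in each SPF pool (blue) and CVT pool (red), with the mean and SD of 4 pools. The groups overlap in every panel, with means of 9.0% and 9.47%, 24.7% and 26.7%, and 12.7% and 18.9% for SPF and CVT.

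The shares of progenitors with each lineage gene likewise overlapped between the housing groups. After adjustment over 6 genes, 1 gene alone could not pass 0.05, so these tests cannot tell whether the groups were alike. Gata1 was found, after thinning, in 23.3%, 20.2%, 16.1% and 13.4% of the progenitors of SPF pools 1, 2, 7 and 8 and in 17.0%, 16.1%, 11.7% and 14.2% of CVT pools 3, 4, 5 and 6. The mean was lower in CVT pools within each pool set, but the groups overlapped (14.7% ± 2.33 against 18.3% ± 4.37, n = 4, exact permutation p = 0.229, adjusted p = 0.686 over 6 genes). Mpo was found in 48.1% ± 10.1 of the progenitors of CVT and 37.6% ± 7.72 of SPF pools (n = 4, exact permutation p = 0.143, adjusted p = 0.686), with 56.0% against 36.7% in pools 1 to 4 and 40.1% against 38.5% in pools 5 to 8. For Itga2b (15.5% ± 1.66 against 17.1% ± 4.22), Cd34 (23.3% ± 2.53 against 24.5% ± 5.54), Car1 (49.9% ± 4.64 against 46.3% ± 8.85) and Mki67 (11.3% ± 1.43 against 10.9% ± 2.24) the adjusted p was 0.771 each (exact permutation test, n = 4).

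No gene passed the test between CVT and SPF progenitors when UMIs were summed per pool. Of 9659 genes tested with edgeR's quasi-likelihood test, 0 were called at an adjusted p of 0.05 (0%), and DESeq2 also called 0. At an unadjusted p under 0.05, 266 genes were higher in CVT progenitors (2.75%) and 207 were lower (2.14%). The 4 pools of both groups did not overlap for 203 genes higher in CVT (2.10%) and 129 lower (1.34%). The genes of smallest p are therefore given as values, on the scale of CPM after TMM scaling.

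Mt2 had the smallest p. It stood at 12.5, 9.25, 2.15 and 7.13 CPM in SPF pools 1, 2, 7 and 8 and at 19.5, 19.8, 20.5 and 14.2 CPM in CVT pools 3, 4, 5 and 6. All CVT pools lay above all SPF pools, with a log2 fold change of 1.26 ± 0.255 (SE, edgeR adjusted p = 0.790). Mt1, the other metallothionein tested, was at 162 ± 14 CPM in CVT and 130.0 ± 16.1 CPM in SPF pools, and its pools overlapped. Without the granulocyte-rich cells the fold change of Mt2 was 1.22 (edgeR adjusted p = 0.224). The log2 ratio of CVT to SPF for Mt2 was 0.66 in the granulocyte reference cells and 0.06 in the erythroid reference cells, where Mt2 is abundant.

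Other genes of small p were higher in value in every CVT pool than in any SPF pool. Ap3s1, a subunit of an adaptor complex for lysosomal transport, was at 289 ± 23.2 against 218 ± 23.8 CPM, Hist1h4i, a histone H4 gene, at 57.8 ± 5.89 against 42.2 ± 1.93 CPM, and Lbp, the lipopolysaccharide binding protein, at 25.6 ± 5.77 against 14 ± 3.70 CPM (n = 4 each). Npc2, which moves cholesterol out of lysosomes and was the gene of smallest p in the cholesterol list, was at 323 ± 27.5 against 257 ± 24.6 CPM. Their log2 fold changes were 0.39 ± 0.0870, 0.45 ± 0.101, 0.80 ± 0.198 and 0.31 ± 0.0833 (SE), and none passed the test. Lbp was at 15.8, 13, 9.30 and 17.8 CPM in the SPF pools and at 23.2, 31.5, 18.6 and 28.8 CPM in the CVT pools, and its log2 fold change was 0.48 ± 0.292 without the granulocyte-rich cells.

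In the other direction stood GTPases of immune cells and a stem cell cytokine. Gimap6 was at 28.2 ± 2.38 CPM in CVT and 39.6 ± 5.59 CPM in SPF pools, and Gimap9, of the same family, at 29.5 ± 5.29 against 40.8 ± 3.35 CPM. Angpt1, angiopoietin 1, was at 86.7, 90.4, 107 and 101 CPM in the CVT pools and at 118, 124, 143 and 114 CPM in the SPF pools, a log2 fold change of -0.39 ± 0.0998. Ifi35, an interferon-induced gene, was at 37.4 ± 0.948 against 47.3 ± 2.12 CPM, and Gm17590 at 26.4 ± 2.68 against 44.0 ± 14.3 CPM. The pools did not overlap for any of these 5 genes, and none passed the test (edgeR adjusted p = 0.790 for Gimap6 and 0.864 for the other 4).

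**Figure D4:**
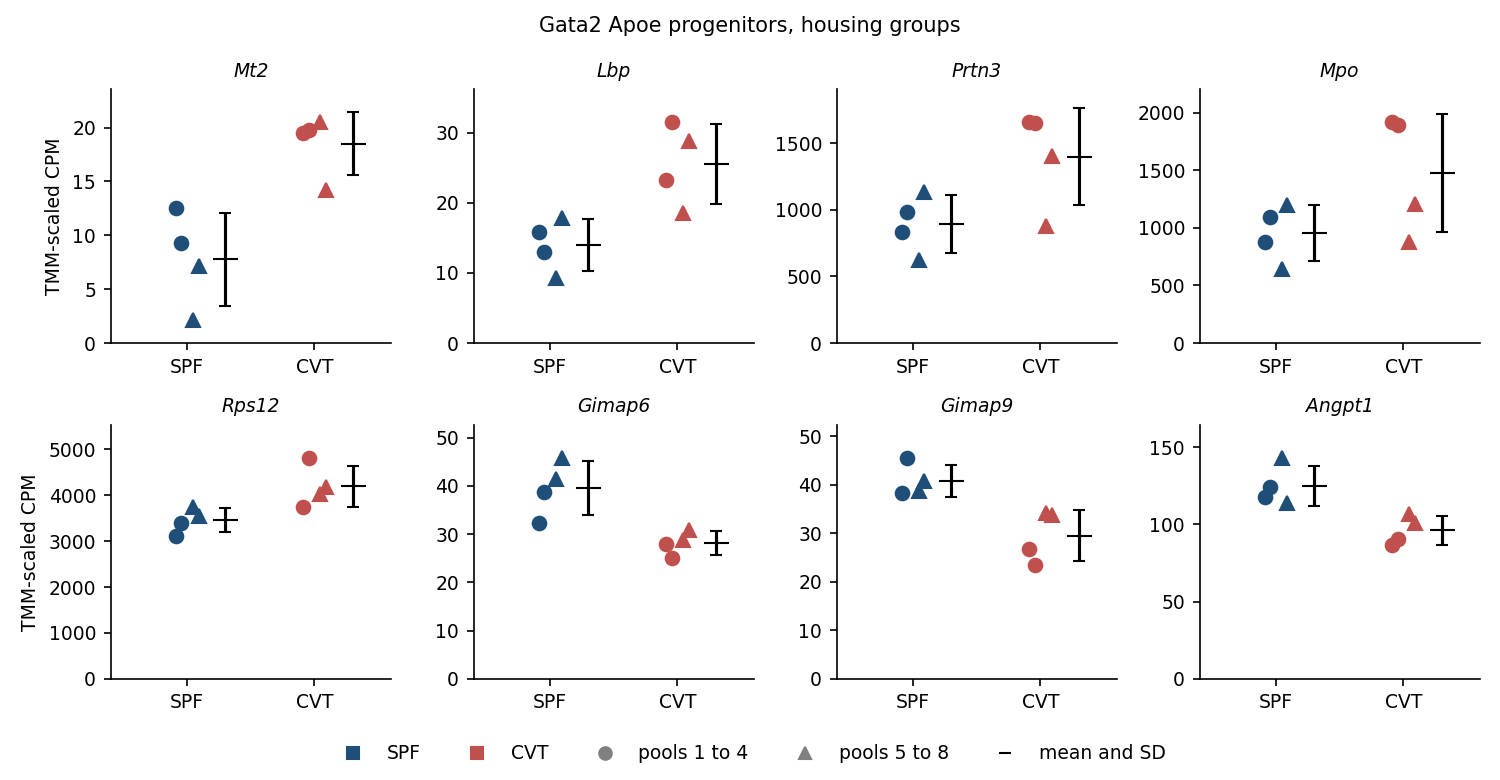
Levels of 8 genes in the progenitors of each pool (CPM after TMM scaling, linear axes from 0), SPF in blue and CVT in red, circles for pools 1 to 4 and triangles for pools 5 to 8, with the mean and SD of 4 pools beside them. Mt2 lay between 14.2 and 20.5 CPM in the CVT pools and between 2.15 and 12.5 CPM in the SPF pools, while Mpo and Prtn3 overlapped, with 2 CVT pools of pool set 1 highest.

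Gene lists were described by their counts and medians beside those of all genes tested, of which 4692 of 9659 were higher in value in CVT progenitors, with a median log2 fold change of -0.01. The list of granulocyte and monocyte genes had 15 of 16 genes higher in value and a median of 0.58, with 8 genes at an unadjusted p under 0.05 against the 2.75% of all genes. Prtn3 was at 833, 985, 622 and 1135 CPM in SPF pools 1, 2, 7 and 8 and at 1658, 1648, 881 and 1406 CPM in CVT pools 3, 4, 5 and 6 (log2 fold change 0.63 ± 0.172). Mpo was at 1476 ± 515 CPM in CVT and 954 ± 246 CPM in SPF pools (0.61 ± 0.203), and Fcgr3, an IgG receptor of myeloid cells, at 35.3 ± 9.24 against 23.6 ± 1.91 CPM (0.55 ± 0.168, pools without overlap). Without the granulocyte-rich cells, whose share was given above for each pool, the median was 0.16 over the 13 genes of this list then tested. The log2 fold changes of Prtn3, Mpo and Fcgr3 were 0.19, 0.23 and 0.16. Prtn3 and Mpo were among the genes by which those cells had been chosen, so their smaller changes were not independent of that choice. The summed level of the list was 4857 to 9278 CPM in CVT and 3796 to 6774 CPM in SPF pools, and no gene of it was at 0.

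Ribosomal protein genes were slightly higher in value in CVT progenitors. Of 81 tested, 76 were higher in value in CVT progenitors with a median of 0.12. An unadjusted p under 0.05 was found for 45, against 2.75% of all genes, and 34 had pools that did not overlap, against 2.10% of all genes. Rps12 stood at 4198 ± 449 CPM in CVT and 3455 ± 264 CPM in SPF pools (log2 fold change 0.27 ± 0.0729), with pools that did not overlap. The median of 0.12 held without the granulocyte-rich cells and with RLE scaling, and none of the 81 genes passed the test. Their sum was 367217 to 380429 CPM in CVT and 353858 to 371089.8 CPM in SPF pools, which overlap. Genes of the mitochondrial genome had 12 of 13 higher in value and a median of 0.13, with mt-Co2, a cytochrome oxidase subunit, at 3155 ± 197 against 2744 ± 81.4 CPM.

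Stem cell genes lay the other way. All 9 tested were lower in value in CVT progenitors, with a median of -0.25. Of these, 3 had an unadjusted p under 0.05, against 2.14% of all genes. The median was -0.21 over 8 genes tested without the granulocyte-rich cells. Ctla2a and Meis1, the stem cell genes of highest level, had log2 fold changes of -0.20 and -0.17, with pools that overlapped. Without those cells they were -0.06 and -0.01. Angpt1, given above, was the stem cell gene of smallest p. Hoxa9, a homeobox factor of stem and myeloid cells, had the smallest p of the transcription factor list. It was at 34.8 ± 1.32 CPM in CVT and 42.2 ± 8.88 CPM in SPF pools, but SPF pool 1, at 30.8 CPM, lay below every CVT pool. The erythroid list had 6 of 14 genes higher in value and a median of -0.05, and the megakaryocyte list 5 of 15 and -0.09; without the granulocyte-rich cells these medians were 0.16 and 0.04. Car2, carbonic anhydrase 2, was at 472 ± 41.8 against 578 ± 79.4 CPM, with a log2 fold change of -0.30 that was -0.13 without those cells. Slc22a3 (68.2 ± 5.84 against 80.0 ± 13.7 CPM) and Muc13 (124 ± 9.89 against 139 ± 8.07 CPM) overlapped between the groups, with log2 fold changes of -0.21 and -0.17 that were -0.04 and -0.06 without the granulocyte-rich cells.

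Genes that sense or answer microbes gave small medians. The 23 interferon-stimulated genes tested had a median of 0.04, with 13 higher in value, and Ly6e, the gene of smallest p among them, was at 476 ± 45 against 397 ± 52.9 CPM (log2 fold change 0.24, or 0.14 without the granulocyte-rich cells). The 13 genes of microbial sensing tested, Toll-like receptors and their adaptors among them, had a median of -0.08, and none had an unadjusted p under 0.05. The 27 genes of cholesterol handling and the Apoe pathway had a median of -0.12, with 9 higher in value.

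Lists of the cell cycle and of acute responses were mixed. Mitosis genes had 21 of 24 higher in value and a median of 0.12, which was -0.02 without the granulocyte-rich cells, and Ube2c, a ubiquitin enzyme of mitotic exit, had a log2 fold change of 0.29 with all progenitors and -0.06 without those cells. Replication genes had 10 of 22 higher and a median of 0.00. Immediate early genes had 14 of 17 higher and a median of 0.24, which was 0.42 without the granulocyte-rich cells. Their summed level was 804 to 2477 CPM in CVT and 1128 to 1667 CPM in SPF pools, so that the lowest pool was a CVT pool. Jund, the gene of smallest p in this list, was at 185 ± 74.0 against 134 ± 18.1 CPM. Its log2 fold change of 0.46 lay between 0.25 and 0.66 when 1 pool was left out. Hspa1a, an inducible heat shock chaperone, was at 90.2, 219.7, 28.7 and 4.17 CPM in CVT pools 3, 4, 5 and 6 and at 6.66, 23.3, 8.58 and 18.4 CPM in the SPF pools, so that CVT pools 3 and 4 gave its log2 fold change of 2.42 ± 0.703. The heat shock list as a whole had a median of -0.02 over 11 genes.

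For the remaining lists the median lay between -0.30 and 0.27. It was -0.13 for 6 lymphoid-primed genes, -0.30 for 12 late granulocyte genes (0.07 without the granulocyte-rich cells), -0.03 for 4 haemoglobin genes (-0.89 without those cells), -0.05 for 6 basophil and mast cell genes, -0.05 for 2 B cell genes and 0.27 for 6 dendritic cell genes (0.12 without those cells). It was -0.05 for 29 transcription factors, -0.09 for 31 surface and cytokine receptors and 0.01 for 12 genes of the Bcl2 family. Markers of eosinophils and of T and NK cells were too low to be tested, with summed levels of at most 33.0 and 27.0 CPM in a pool, and Ear6 of the eosinophils and Tpsb2 and Alox15 of the mast cells were at 0 in every pool.

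More genes were called between the sets of pools than between the housing groups. In a model with housing as a term, 97 of 9659 genes were called between pools 5 to 8 and pools 1 to 4 (1.0%), 65 higher in pools 5 to 8 (0.673%) and 32 lower (0.331%). The pools of both sets did not overlap for 345 genes higher (3.57%) and 384 lower (3.98%). Before adjustment, 746 genes had a p under 0.05 with a higher level in pools 5 to 8 (7.72%) and 747 with a lower one (7.73%). The number called was 37 without CVT pool 5 and 514 without SPF pool 8, and it was 51, 51 and 47 without CVT pools 3, 4 and 6, 147 without SPF pool 1 and 55 without SPF pool 7.

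Haemoglobin genes had the largest fold changes among the called genes. All 4 haemoglobin-related genes tested were called higher in pools 5 to 8 (0.673% of all genes), with a median log2 fold change of 5.80 against 0.00 for all genes. Hbb-bs was at 4.99, 7.19, 8.24 and 11.2 CPM in pools 1, 2, 3 and 4 and at 623, 457, 770.4 and 175 CPM in pools 5, 6, 7 and 8 (log2 fold change 5.92 ± 0.375, edgeR adjusted p = 4.30e-09). Hba-a1 (5.68 ± 0.480), Hba-a2 (5.94 ± 0.556) and Hbb-bt (4.22 ± 0.469) behaved alike, with SPF pool 7 the highest and SPF pool 8 the lowest of the later pools. The summed level of the haemoglobin list was 347 to 1927 CPM in pools 5 to 8 and 23.2 to 28.1 CPM in pools 1 to 4. In the granulocyte reference cells, which should make no haemoglobin, the log2 ratio of Hbb-bs between the pool sets was 4.92.

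Late granulocyte genes were also higher in pools 5 to 8. All 12 tested were called higher in pools 5 to 8 (0.673% of all genes), with a median of 1.55. Without the granulocyte-rich cells 7 of 10 tested were still called, with a median of 0.99, where 39 of all 9091 genes tested were called higher. S100a8 was at 784, 3131, 1688 and 1533 CPM in pools 1, 2, 3 and 4 and at 5484, 5382, 7655 and 4539 CPM in pools 5, 6, 7 and 8 (log2 fold change 1.70 ± 0.233, edgeR adjusted p = 2.41e-04), and the fold change was 1.12 without the granulocyte-rich cells. Retnlg, a resistin-like protein of mature neutrophils, had a log2 fold change of 2.39 ± 0.230 and Fpr2, a formyl peptide receptor of neutrophils, 2.84 ± 0.366. In the erythroid reference cells, which should lack granule genes, the log2 ratio of S100a8 was also 1.70, and the summed late granulocyte list was 2049.7 to 2995 CPM in pools 5 to 8 and 419 to 1075 CPM in pools 1 to 4. The part of transcripts from other cells in these differences was not tested.

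Called genes outside these lists included granule, sort and antigen presentation genes. Cpa3 was at 111, 104, 97.2 and 105 CPM in pools 1, 2, 3 and 4 and at 136, 146, 168 and 218 CPM in pools 5, 6, 7 and 8, without overlap (log2 fold change 0.67 ± 0.0924, edgeR adjusted p = 2.41e-04). Its log2 ratio was 0.10 in the erythroid reference and 0.56 in the granulocyte reference. Cd63, a tetraspanin of granule membranes, was at 312 ± 21.5 against 215 ± 26.5 CPM (0.53 ± 0.0768), which was 0.32 and no longer called without the granulocyte-rich cells (edgeR adjusted p = 0.0555). Pdzk1ip1, a membrane protein of stem cells, was at 44.7 ± 4.62 against 29.7 ± 5.06 CPM (0.57 ± 0.118), and the call was lost without CVT pool 4 (0.50), CVT pool 5 (0.49) or SPF pool 7 (0.56). Kit, which encodes the CD117 used in the sort and was named after its values were seen, was at 85.7, 99.6, 90.7 and 78.4 CPM in pools 1, 2, 3 and 4 and at 124, 132, 127 and 104 CPM in pools 5, 6, 7 and 8 (0.46 ± 0.0941, edgeR adjusted p = 0.0136). The call of Kit was lost without CVT pool 3, 4, 5 or 6 or SPF pool 7, with log2 fold changes of 0.47, 0.38, 0.45, 0.41 and 0.43. Cd74 and H2-Aa, of the class II antigen pathway, had log2 fold changes of 2.55 ± 0.555 and 2.29 ± 0.438, and both were highest in CVT pool 5, at 59.0 and 26.5 CPM. Without that pool they were 1.02 and 1.34 (edgeR adjusted p = 0.363 and 0.180), and both calls were also lost without CVT pool 3 (2.15 and 2.13) or CVT pool 4 (2.23 and 2.11).

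Some genes of acute responses were called lower in pools 5 to 8. Fosb, an AP-1 subunit, was at 39.9, 124, 173 and 227 CPM in pools 1, 2, 3 and 4 and at 33.2, 28.8, 55.8 and 56.2 CPM in pools 5, 6, 7 and 8 (log2 fold change -1.73 ± 0.279, edgeR adjusted p = 0.00147), with SPF pool 1 inside the range of the later pools. Of 17 immediate early genes tested, 15 were lower in value, 11 of them at an unadjusted p under 0.05 (7.73% of all genes), and 3 were called lower (0.331% of all genes), Fosb, Jun (-0.77 ± 0.179) and Klf2 (-1.19 ± 0.271). The call of Jun was lost without SPF pool 2 or 7 or CVT pool 3, 4, 5 or 6, with log2 fold changes of -0.79, -0.80, -0.77, -0.58, -0.78 and -0.52, and that of Klf2 without CVT pool 4, 5 or 6, with -0.79, -1.11 and -0.88. Of 11 heat shock genes all were lower in value, with a median of -0.23. Of these, 9 had an unadjusted p under 0.05 (7.73% of all genes) and 2 were called lower (0.331% of all genes), led by Hspa1a (-2.27 ± 0.438). Hspa1a was high in CVT pools 3 and 4, at 90.2 and 219.7 CPM, while SPF pools 1 and 2 (6.66 and 23.3 CPM) lay in the range of the later pools (4.17 to 28.7 CPM). Its call was lost without CVT pool 4 (-1.56), CVT pool 5 (-2.29) or CVT pool 6 (-1.61). Ppp1r15a, a stress-induced phosphatase subunit (-0.69 ± 0.120), was lower with pools that did not overlap.

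Mitosis genes were lower in value as well, with 23 of 24 and a median of -0.24; 9 of them had an unadjusted p under 0.05 (7.73% of all genes) and 2 were called lower (0.331% of all genes). Ccnb1, cyclin B1, was at 49.1, 38.7, 51.2 and 47.2 CPM in pools 1, 2, 3 and 4 and at 27.2, 34.2, 20.7 and 30.9 CPM in pools 5, 6, 7 and 8 (log2 fold change -0.66 ± 0.125, edgeR adjusted p = 0.00783), and Hmmr, a spindle protein, had -0.67 ± 0.136. The call of Ccnb1 was lost without CVT pool 3 (-0.63) or CVT pool 5 (-0.57) and without the granulocyte-rich cells (-0.66, edgeR adjusted p = 0.05), and that of Hmmr without CVT pool 3 (-0.65), CVT pool 6 (-0.62) or SPF pool 7 (-0.63). The log2 ratios of Ccnb1 in the erythroid and granulocyte references were -0.19 and 0.03. Irf8 had a log2 fold change of -1.07 ± 0.197, which was -0.55 and no longer called without the granulocyte-rich cells (edgeR adjusted p = 0.115), and its call was also lost without CVT pool 5 (-0.92). Cd69, an activation antigen, had -0.83 ± 0.161, which was -0.48 and no longer called without the granulocyte-rich cells (edgeR adjusted p = 0.253) and was -0.68, -0.88 and -0.69, also not called, without CVT pools 4, 5 and 6. Rpn2, of the oligosaccharyl transferase, had -0.43 ± 0.0740.

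**Figure D5:**
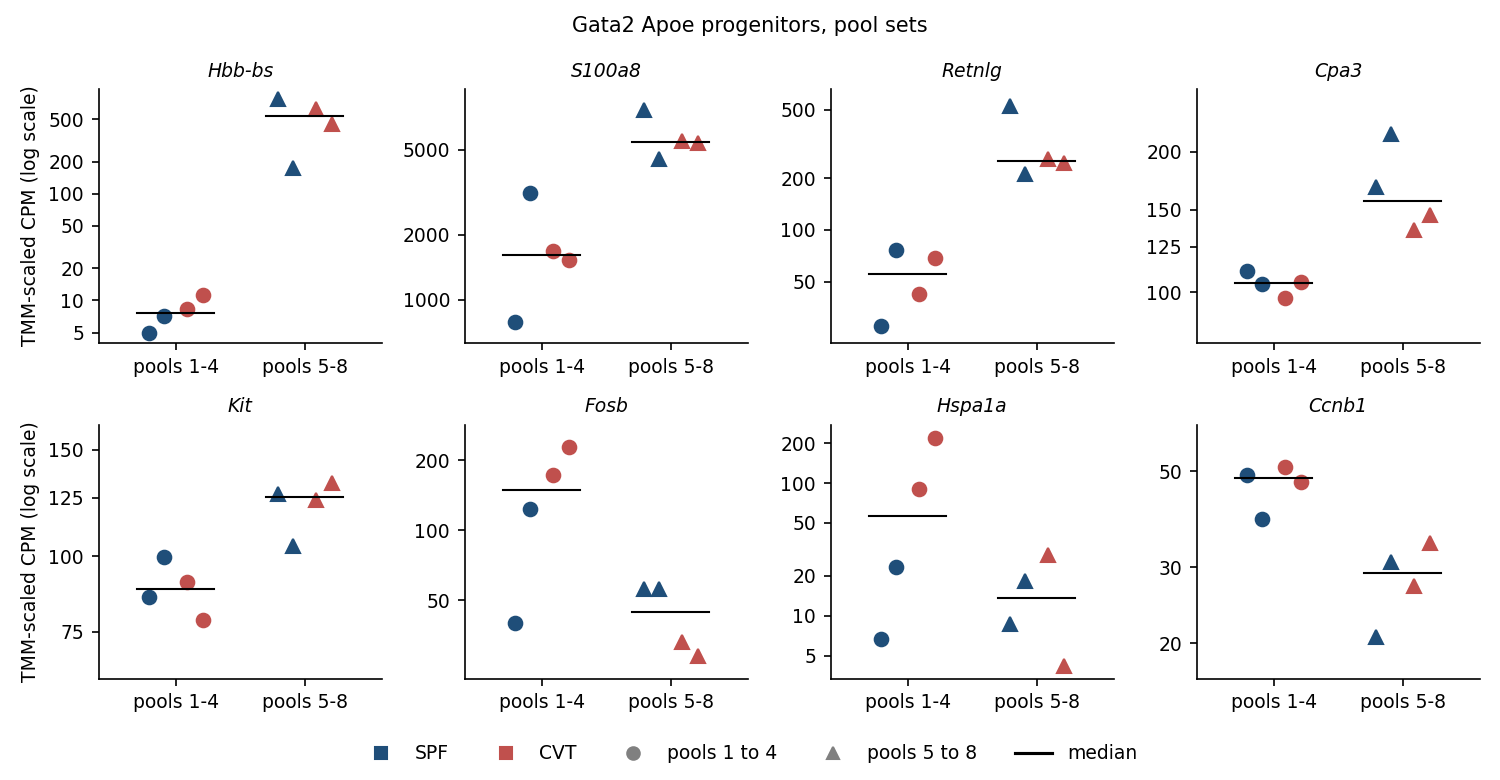
Levels of 8 genes in the progenitors of each pool by pool set (CPM after TMM scaling, log axes that differ between panels), SPF in blue and CVT in red, with a bar at the median of 4 pools. Hbb-bs lay between 4.99 and 11.2 CPM in pools 1 to 4 and between 175 and 770.4 CPM in pools 5 to 8, Cpa3 and Kit were higher and Ccnb1 lower in the later pools without overlap, and Fosb and Hspa1a overlapped.

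The called genes were also compared in other cells of the same pools. Of the 97 called genes, 94 had the same sign in the erythroid reference and 94 in the granulocyte reference, and 46 were also called, in the same direction, without the granulocyte-rich cells. The share with the same sign was not taken over all genes tested, so these counts have no background beside them. Some called genes, Fpr2 and Mmp9 among them, were not tested without the granulocyte-rich cells and could not be among the 46. For the other lists, the median log2 fold change was 0.01 for 9 stem cell genes, -0.04 for 6 lymphoid-primed genes, -0.24 for 16 granulocyte and monocyte genes, -0.09 for 15 megakaryocyte genes, -0.06 for 14 erythroid genes, 0.37 for 6 basophil and mast cell genes and 0.25 for 6 dendritic cell genes. It was 0.07 for 2 B cell genes, -0.02 for 29 transcription factors, 0.09 for 31 receptors, -0.06 for 27 cholesterol genes, -0.12 for 22 replication genes, 0.14 for 23 interferon-stimulated genes, 0.07 for 13 genes of microbial sensing and 0.02 for 12 genes of the Bcl2 family. It was -0.24 for the 2 metallothioneins, 0.07 for 81 ribosomal protein genes and 0.06 for 13 mitochondrial genes. The median log2 fold change of the 2 metallothioneins between CVT and SPF pools was 0.78.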

How the data were processed

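The members and gene lists were chosen with earlier results of these data known, and some lists and tests were taken from an earlier analysis. Values are counts of UMIs per gene and cell that the authors deposited as 1 table of 27998 genes and 29891 cells; per the submitters' processing notes, Cell Ranger and mouse build mm9 were used (the version is not given in the sources used here). Cells were tied to samples by the pool number in the barcode and the labels, and no cell was left out. No column of another sample was present. No doublet caller was run.

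UMIs of the members were summed per pool and tested with edgeR 4.0.16 in R 4.3.3 (quasi-likelihood test, TMM scaling, filterByExpr, Benjamini-Hochberg adjustment), with CVT against SPF alone and the pool sets with housing as a term. DESeq2 1.42.0 was an alternative. Shares were compared with a two-sided exact permutation test over 70 regroupings. Shares of members with a gene were taken in cells thinned to 2759 UMIs (seed 1). Shares of members among cells used the rule on raw UMIs and were not corrected for depth. Tables and plots were made with pandas 2.3.3, matplotlib 3.10.9 and numpy 2.4.6, and exact tests with scipy 1.17.1, under Python 3.11.15. In simulated data for CVT against SPF over 9659 genes, 165 of 200 genes changed 2-fold were recovered (82.5%), with 10 false calls among 175. The simulation gave every pool of a group the same mean and genes of like level the same spread, with no difference between pool sets. The 82.5% is therefore not the power of the test in the real data. P-values set a difference against the spread between pools, each of 2 or 3 mice. The exact tests of shares regrouped the pools without regard to the pool sets, so the spread between the sets is included. Pools of a group were compared for copies, and all pairs differed beyond counting error, with a chi-square of 1.70 to 7.87 divided by its degrees of freedom.

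Total UMIs were 19041749 to 59812346 per pool, which limits genes of low counts. The genes named were, by rule, those of smallest p, those of largest change past the threshold, and those of highest level and smallest p in each list, with the gate and label genes; Kit was added after its values were seen, and some genes the rule named are not reported here. Leading genes needed a mean of 20 CPM and were ranked by the log2 ratio with a pseudocount of 1 CPM. Promoter sequences came from RefSeq, build GRCm38.p6, matched by symbol. Alternatives were other scalings, gates, filters on genes and cells, a pool set term, and leaving out each pool.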

Additional observations from a re-analysis of the deposited data

Results flagged for a closer look

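In 9 of 116 groups of 4 pools tested, the highest or lowest pool lay apart from the other 3 by Dixon's criterion, which chance meets in about 1 of 20 groups. Mt2 was lowest among CVT pools in pool 6, at 14.2 CPM against 19.5, 19.8 and 20.5 CPM. Cytochrome oxidase gene mt-Co2 was highest in the same pool, at 3451 CPM against 3050.3, 3053 and 3068 CPM. Among SPF pools, Fcgr3 was lowest in pool 1, at 20.8 CPM against 24.3, 24.4 and 25.0 CPM, and Ube2c was lowest in pool 7, at 53.6 CPM against 69.9, 70.2 and 70.2 CPM.

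Haemoglobin genes were highest among SPF pools in pool 7, with Hba-a1 at 431 CPM against 4.99, 5.14 and 67.2 CPM, Hba-a2 at 365 CPM against 1.71, 2.5 and 48.8 CPM, and Hbb-bt at 358 CPM against 8.56, 9.98 and 48.5 CPM. SPF pools 1 and 2 belong to the earlier pool set and pools 7 and 8 to the later one. The class II antigen genes were highest among CVT pools in pool 5, with Cd74 at 59.0 CPM against 3.00, 3.07 and 7.51 CPM and H2-Aa at 26.5 CPM against 2.51, 2.75 and 5.84 CPM. All values are CPM after TMM scaling in the progenitors.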

How the results depend on the processing

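No paired analysis was possible because the labels give no shared replicate number or animal that ties an SPF pool to a CVT pool. With the pool set as a term, 0 genes were called between CVT and SPF. For the share of members among all cells, the difference of CVT minus SPF was 0.465 percentage points and became -0.587 when the rule was applied to thinned cells and -0.167 without the granulocyte-rich cells. The share of members with Cd34 differed by -1.21, and by 1.68 with at least 2 UMIs of Gata2 and 0.133 without thinning. The share of members with Car1 differed by 3.69, and by -0.125 with at least 2 UMIs of Gata2, and the share of members with Mki67 by 0.434, and by -0.120 without cells holding Pf4 or Mcpt8. None of these differences passed the test in any setting, and after adjustment the exact test could not have called a single one by itself. Ube2c, CVT against SPF, had a log2 fold change of -0.06 without the granulocyte-rich cells.

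Leaving out each pool in turn gave 0.0990 to 1.04 for the share of members among all cells, 1.24 to 2.85 among Gata2 Apoe cells, -5.12 to -1.83 for the share of members with Gata1, -3.49 to -0.284 with Itga2b, 7.22 to 14.7 with Mpo, -3.08 to 1.34 with Cd34, -0.454 to 6.51 with Car1 and -0.504 to 1.21 for the share of members with Mki67. The signs for Cd34 and Car1 turned without SPF replicate 4 (pool 8), and that for Mki67 without SPF replicate 3 (pool 7, -0.504) or CVT replicate 1 (pool 3, -0.222).

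Genes called CVT against SPF in members numbered 0 except without a filter on low counts, where 32 of 15534 were called (26 higher, 6 lower), and 0 without any pool. Genes called pool set 2 against pool set 1 in members numbered 97 (65 higher, 32 lower), 53 with DESeq2, 338 without the filter, 33 with at least 2 UMIs of Gata2 and 189 with the rule applied to thinned cells. They numbered from 37 without CVT replicate 3 (pool 5) to 514 without SPF replicate 4 (pool 8). Without CVT replicates 1, 2 and 4 (pools 3, 4 and 6) they numbered 51, 51 and 47, without SPF replicate 1 (pool 1) 147 and without SPF replicate 3 (pool 7) 55. The cause was not tested. Depth limits low genes.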
